A study of Arabidopsis thaliana with 6 samples.

Results

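Phenylalanine ammonia-lyase (PAL), cinnamate 4-hydroxylase (C4H), 4-coumarate:CoA ligase (4CL), cinnamoyl-CoA reductase (CCR) and cinnamyl alcohol dehydrogenase (CAD) are described here through 10 genes of Arabidopsis thaliana, chosen by locus identifier out of 28775 features. They are PAL1 (AT2G37040), PAL2 (AT3G53260), PAL3 (AT5G04230), PAL4 (AT3G10340), C4H (AT2G30490), 4CL1 (AT1G51680), 4CL2 (AT3G21240), 4CL3 (AT1G65060), CCR1 (AT1G15950) and CAD5 (AT4G34230). Polyadenylated RNA was sequenced from the accessions Col-0, the source of the reference genome, and Can-0, both founders of the MAGIC intercross population. Seedlings were 11 days old and grown on soil, roots were 10 days old and grown on plates, and floral buds were at stage 12 and grown on soil, all at 20 C under 16 hours of light and 8 hours of dark. There was 1 library for each tissue of each accession, 6 libraries in all, and no replicate within a group. Levels are RPKM, the read count of a gene model divided by its length and by the library's mapped reads, as the authors deposited them, and a pair of levels gives Col-0 first and Can-0 second. Differences are of log2(RPKM + 1), so they understate the change of low genes.

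The pathway starts when PAL removes ammonia from phenylalanine to give cinnamate, which C4H, a cytochrome P450, hydroxylates and 4CL then activates as a CoA ester. That ester is shared by the flavonoid branch, which chalcone synthase opens, and by the monolignol branch, in which CCR and CAD carry out the reductions before peroxidases and laccases join the alcohols into lignin. Lignin is laid down mainly in the walls of water-conducting xylem and of fibres, and in roots also in the Casparian strip of the endodermis.

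Every PAL enzyme makes its own catalytic group from an alanine, a serine and a glycine in a row, and the codons of these residues are shown in capitals below because they mark the part of the active site that the 4 PAL genes share. The sequences were read from the RefSeq TAIR10.1 assembly of Col-0, each on the strand of its gene, at chr2:15559117-15559173 (minus strand) for PAL1, chr3:19745771-19745827 (minus) for PAL2, chr5:1162066-1162122 (plus) for PAL3 and chr3:3206137-3206193 (plus) for PAL4.
PAL1: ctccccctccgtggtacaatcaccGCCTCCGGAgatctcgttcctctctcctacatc
PAL2: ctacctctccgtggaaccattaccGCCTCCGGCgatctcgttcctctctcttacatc
PAL3: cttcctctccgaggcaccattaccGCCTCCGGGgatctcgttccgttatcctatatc
PAL4: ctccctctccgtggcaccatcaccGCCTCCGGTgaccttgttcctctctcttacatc
Over these 57 bases PAL2 and PAL4 each differed from PAL1 at 7 positions and PAL3 at 11. Over the whole coding sequence PAL1 and PAL2 were 84.0% identical, PAL3 and PAL4 78.9%, PAL1 and PAL4 72.9%, and 4CL1 and 4CL2 81.6%. No member had another transcript at 95% identity over 50% of its length, so none was treated as sharing reads with a near-identical copy. The longest stretch that PAL1 and PAL2 hold in common was 80 bases, at chr2:15558530-15558609 and chr3:19745184-19745263, both on the minus strand. It is shown because a read that falls wholly within it could come from either gene, and how such reads were counted is not given in the sources used here.
PAL1 and PAL2: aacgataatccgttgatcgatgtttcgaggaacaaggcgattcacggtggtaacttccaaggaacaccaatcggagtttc

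AC elements are the promoter motifs, known from lignin genes of several plants, to which MYB activators bind. Their 3 forms, AC-I (spelled ACCTACC), AC-II (spelled ACCAACC) and AC-III (spelled ACCTAAC), were searched on both strands in the 250 bases before each annotated gene start. Of the 10 members, 4 held at least 1 of them, against 6.12% of 26709 promoters of the same length. The stretches are given on the gene's strand with the elements in capitals, at chr3:7457419-7457554 (minus) for 4CL2, chr1:24171687-24171765 (minus) for 4CL3, chr1:5478579-5478602 (plus) for CCR1 and chr4:16389162-16389188 (minus) for CAD5.
4CL2: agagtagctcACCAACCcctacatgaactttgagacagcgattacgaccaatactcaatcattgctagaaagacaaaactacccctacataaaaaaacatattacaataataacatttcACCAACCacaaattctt
4CL3: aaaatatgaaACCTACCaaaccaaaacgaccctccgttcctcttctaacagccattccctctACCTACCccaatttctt
CCR1: ttcttcttccACCAACCcctcttt
CAD5: ttgtttgttcACCAACCcccgtggacc
4CL2, CCR1 and CAD5 held AC-II, which 2.71% of all promoters hold, and 4CL3 held AC-I, which 1.16% hold. In 4CL2 and 4CL3 the element occurred 2 times, starting 140 and 31 bases before the gene start in 4CL2 and 120 and 68 bases before it in 4CL3. CACGTG, the G-box, was found only in PAL4 among the 10, and in 6.58% of all promoters. These matches describe letters in the window and not bound sites. The 3 genes with AC-II had their highest levels in root and 4CL3 in bud, as given below, and PAL1, PAL2, C4H and 4CL1, with no AC element in this window, were also highest in root.

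The step between neighbouring low RPKM values put the mapped reads at 21480000 to 22660000 per library, so that 1 read in a gene of 1 kb was worth 0.0441 to 0.0466 RPKM. This depth is an estimate, and intervals drawn from it cover counting error only: PCR copies of 1 molecule were not told apart. Marker sums followed the tissue labels, though not every single marker did. The 5 leaf markers summed to 16451 and 13901 RPKM in seedling, 4462 and 3706 in bud, and 83.4 and 44.3 in root. The 5 root markers summed to 193 and 167 RPKM in root against at most 11.2 elsewhere. Of these, PHT1;1 held 132 and 112 RPKM in root. SCR differed little, at 11.9 and 13.1 RPKM in root, 9.74 and 7.29 in seedling, and 10.6 and 8.95 in bud. The 5 pollen markers summed to 1269 and 1466 RPKM in bud against at most 0.525 elsewhere. Among 5 floral bud markers, summing to 709 and 847 RPKM in bud, the tapetum gene A9 was listed at 0 in all 6 libraries. The run and lane codes place both seedling libraries in run 33 and both root libraries in run 40, while the buds of Col-0 were in run 36 and those of Can-0 in run 35. Tissue therefore cannot be told apart from run, nor root from growth on plates, nor the accession difference in bud from run.

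The entry enzymes as a group were most abundant in root. Their 10 levels summed to 310 and 269 RPKM in seedling, 1062 and 1015 RPKM in root, and 294 and 508 RPKM in floral bud. The root sums were above all the others, and the seedling and bud sums overlapped. In bulk tissue, fewer cells of a type and less RNA per cell cannot be told apart. Xylem and secondary wall markers were also highest in root: 8 genes summed to 114 and 127 RPKM in seedling, 499 and 552 in roots, and 145 and 196 in bud, none of them at 0 in any library, and their part in the levels of the entry enzymes was not tested. The members were not all high in the same tissue: PAL1, PAL2, C4H, 4CL1, 4CL2, CCR1 and CAD5 had their highest levels in the root libraries, PAL4 and 4CL3 in the bud libraries, and PAL3 in the seedling libraries. The share of all genes with both root libraries highest was not counted, so these orders only describe the members.

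**Figure D1:**
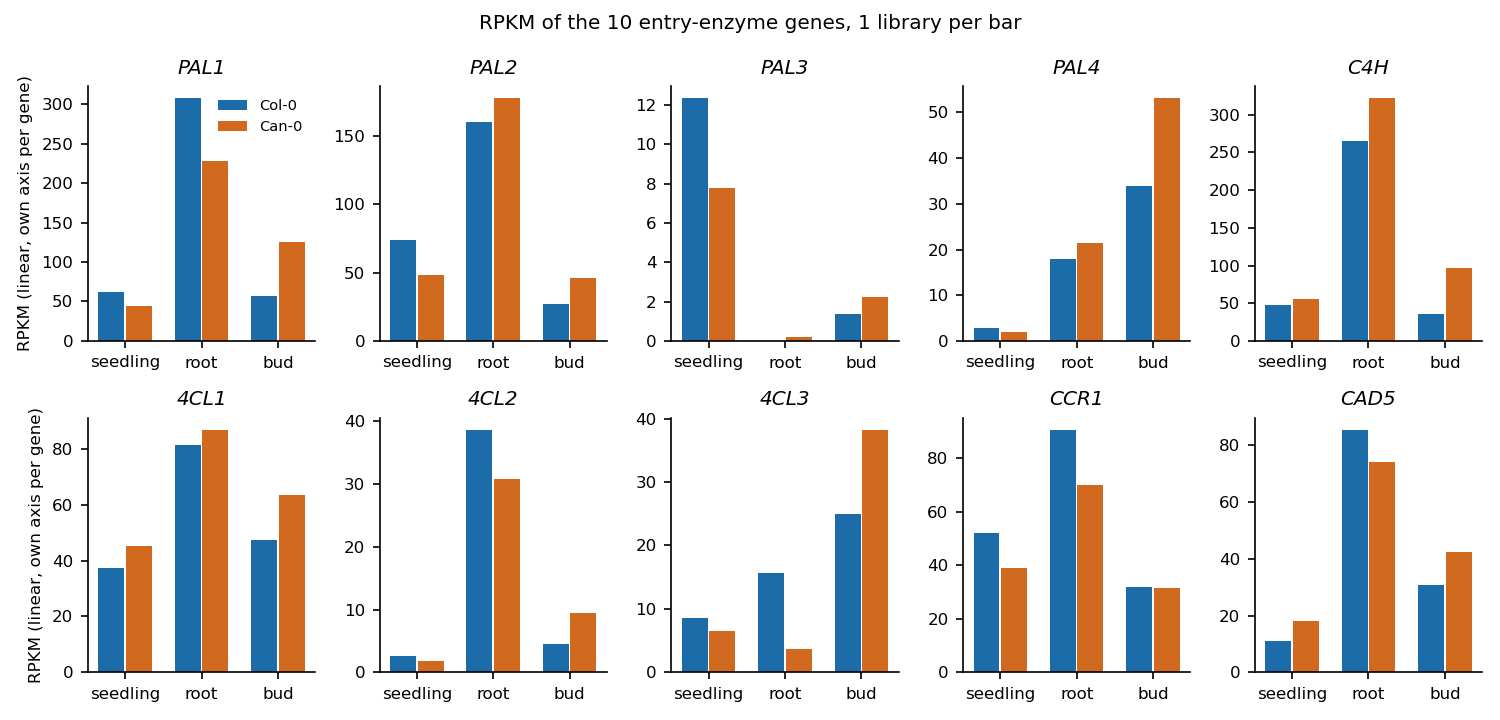
Level of each of the 10 genes in RPKM (linear axis, a separate scale for each gene, starting at 0) in seedling, root and floral bud, 1 bar per library, blue for Col-0 and orange for Can-0; there are no error bars because each bar is 1 library. Both root bars are the tallest for PAL1, PAL2, C4H, 4CL1, 4CL2, CCR1 and CAD5, while PAL4 and 4CL3 are tallest in bud and PAL3 in seedling.

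Tissues were compared over both accessions with limma, in which the spread is how far the tissue difference of 1 accession departs from that of the other, and a gene is called at a Benjamini-Hochberg adjusted p under 0.05 over 20830 genes. All 10 members passed the filter of 1 RPKM in 2 libraries. Between seedling and root 8 members were lower in seedling and 1 was higher, where 59.5% of all genes were called, 41.0% lower and 18.5% higher. The median difference was -1.89 over the members and -0.33 over all genes. Between floral bud and root 7 members were lower in bud and 3 higher, where 57.3% of all genes were called, 27.0% lower and 30.3% higher, and the medians were -1.21 and 0.02. Between floral bud and seedling 3 members were higher in bud and 2 lower, where 44.8% of all genes were called, 32.8% higher and 12.0% lower, and the medians were 0.54 and 0.27. So many genes differed among tissues that a call alone says little of a member, and the sizes below carry the description. When each library was centred on its median gene, the median of all genes between seedling and root became -0.06, that between bud and seedling -0.21 and that between bud and root -0.19. The higher genes among all called then numbered 4818 of 10953 in place of 3849 of 12398 between seedling and root, and 3385 of 8907 in place of 6837 of 9336 between bud and seedling.

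**Figure D2:**
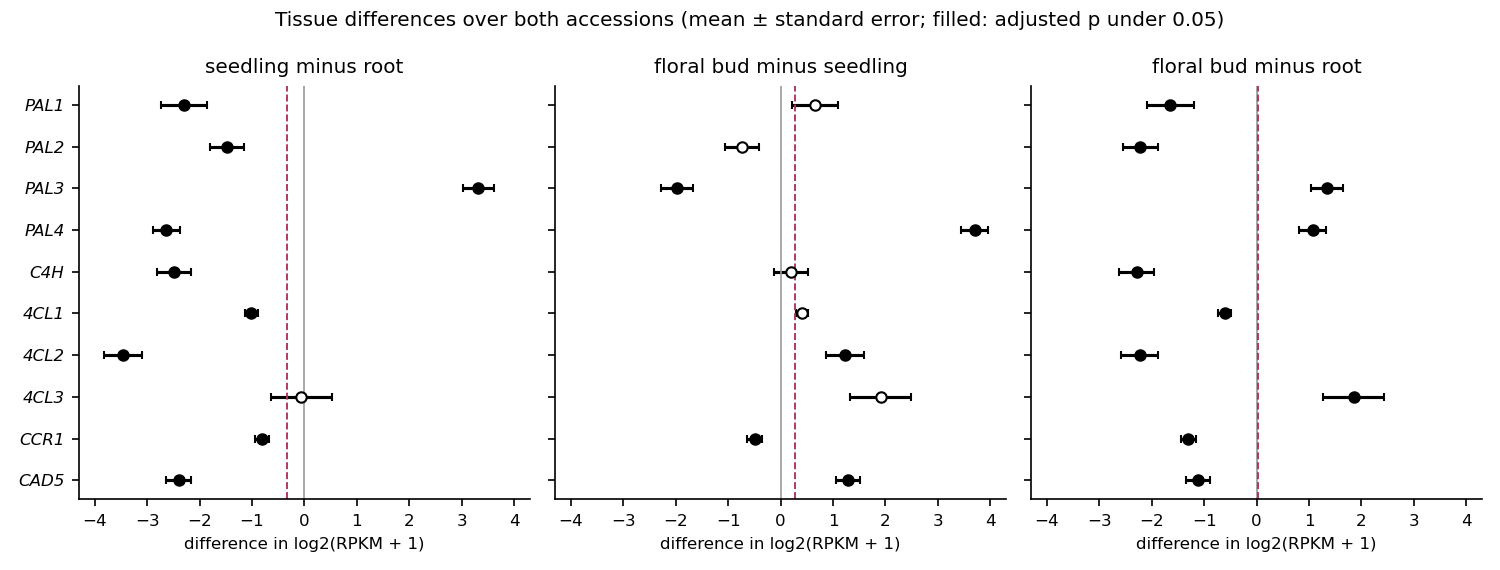
Difference in log2(RPKM + 1) between tissues for each gene, as the mean over the 2 accessions with its standard error from limma (6 libraries); filled points have an adjusted p under 0.05, the grey line is 0 and the dashed line is the median of all 20830 genes. Most points lie left of the dashed line in the comparisons with root, PAL3 lies to the right of it in both, and PAL4 and 4CL3 lie to the right in both comparisons that involve bud.

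PAL1 is, with PAL2, one of the isoenzymes that supply most cinnamate for lignin and flavonoids. It stood at 62.4 and 44.5 RPKM in seedling, 308 and 228 RPKM in root, and 56.6 and 125 RPKM in bud. Root was highest in both accessions, while seedling and bud overlapped. The level in root was 4.93 times that in seedling in Col-0 and 5.13 times in Can-0 (seedling minus root -2.31 ± 0.44 SE, adjusted p = 0.0106). The bud was lower than root by less in Can-0 than in Col-0, with root at 5.44 times the bud level in Col-0 and 1.83 times in Can-0 (-1.64 ± 0.44, adjusted p = 0.0310). Bud and seedling were not told apart (0.66 ± 0.44, adjusted p = 0.277), since the difference was -0.14 in Col-0 and 1.47 in Can-0. Without the Col-0 root library PAL1 was not called between seedling and root (adjusted p = 0.0527) or between bud and root (0.140, and 0.0510 with all libraries and no filter), and without the Col-0 bud library its bud level was called above seedling (1.46, adjusted p = 0.0260).

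PAL2 stood at 74.0 and 48.4 RPKM in seedling, 160 and 177 RPKM in root, and 27.2 and 46.2 RPKM in bud. The tissues did not overlap, but the lower seedling library and the higher bud library were close. Root was above seedling (seedling minus root -1.48 ± 0.33, adjusted p = 0.0174) and above bud (bud minus root -2.22 ± 0.33, adjusted p = 0.00516), while bud and seedling were not told apart (-0.74 ± 0.33, adjusted p = 0.135). The call between seedling and root was lost without either root library (adjusted p = 0.0638 without Col-0 and 0.0682 without Can-0), and bud fell below seedling without the Can-0 seedling library (adjusted p = 0.0240) and under median centring (0.0394).

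PAL3, known for low activity in vitro, was the only member with its highest level in seedling and at or near 0 in root. It stood at 12.3 and 7.79 RPKM in seedling, 0 and 0.176 RPKM in root, and 1.36 and 2.24 RPKM in bud. The 3 tissues did not overlap, with seedling above bud and bud above root. In the Col-0 root library the listed 0 had an exact Poisson upper limit of 0.0634 RPKM at 95%, where 3 reads would be 0.0516 RPKM. In Can-0 root the level rested on about 10.3 reads with an exact Poisson interval of 0.0855 to 0.320 RPKM at 95%. Seedling was above root by 3.32 ± 0.30 (adjusted p = 0.00121) and bud above root by 1.35 ± 0.30 (adjusted p = 0.0188), and bud was below seedling (-1.97 ± 0.30, adjusted p = 0.00884). No fold is given against the root library listed at 0, and with 0.1 in place of 1 added before the logarithm the seedling minus root difference was 5.90 and the bud minus root difference 3.47. Bud minus root was not called without either root library (adjusted p = 0.0944 without Col-0 and 0.0543 without Can-0) or without the Can-0 bud library (0.128), and bud minus seedling was not called without the Col-0 bud library (0.0708).

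PAL4 was lowest in seedling, where PAL3 was highest. Its levels were 2.74 and 1.97 RPKM in seedling, 18.0 and 21.5 RPKM in root, and 33.9 and 53.1 RPKM in bud. No tissue overlapped another, and bud was highest in both accessions. The bud level was 12.4 times the seedling level in Col-0 and 27.0 times in Can-0 (3.71 ± 0.25, adjusted p = 0.00110), which was the largest difference of any member between bud and seedling. Root was above seedling (-2.64 ± 0.25 for seedling minus root, adjusted p = 0.00140). Bud was above root by 1.88 times in Col-0 and 2.47 times in Can-0 (1.07 ± 0.25, adjusted p = 0.0219), a call lost without the Can-0 bud library (adjusted p = 0.127) and without either root library (0.0919 without Col-0 and 0.0740 without Can-0).

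The makeup of the PAL step shifted among tissues in the same direction in both accessions for PAL2 and PAL4. Of the summed PAL level, PAL2 made up 48.8% and 47.1% in seedling, 33% and 41.5% in roots, and 22.8% and 20.4% in bud. PAL1 made up 41.2% and 43.4% in seedling, 63.3% and 53.4% in roots, and 47.5% and 55.2% in bud. PAL4 made up 1.81% and 1.92% in seedling, 3.71% and 5.03% in roots, and 28.5% and 23.5% in bud. PAL1 and PAL2 together thus held most of the PAL level in every library, and PAL4 held a larger share in bud than in the other tissues in both accessions. Over the 6 libraries PAL1 was above PAL4 in every one (mean difference 2.89 ± 1.52 SD), which an exact two-sided sign-flip permutation test placed at p = 0.0313, the smallest 6 libraries allow, and at 0.0438 when adjusted over the 7 isoenzyme pairs compared. This test takes the libraries as independent, although they are 3 tissues of 2 accessions and libraries of 1 tissue had like differences; with the 3 tissues as units no p under 0.05 could be reached, for this or any other pair. PAL1 was above PAL2 in 4 of 6 libraries (0.56 ± 0.67 SD, exact permutation, adjusted p = 0.125), and PAL2 was above PAL4 in 4 of 6 (2.32 ± 2.06 SD, exact permutation, adjusted p = 0.125), the exceptions being the bud libraries.

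**Figure D3:**
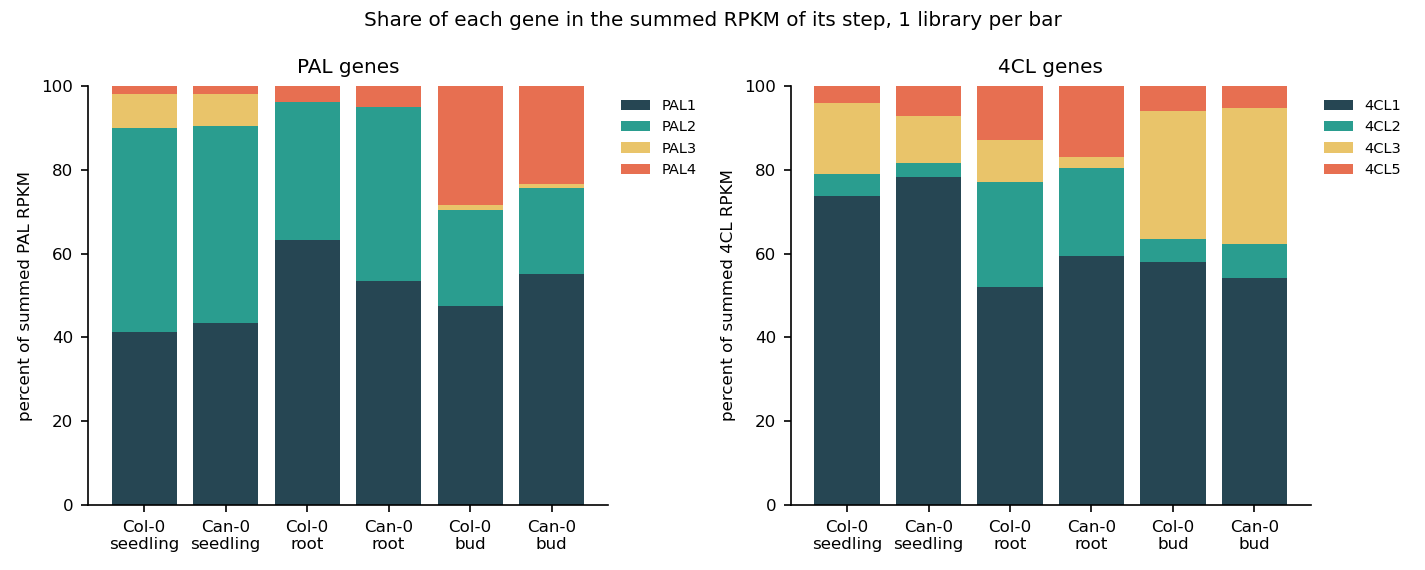
Share of each gene in the summed RPKM of the PAL genes (left) and of the 4CL genes including 4CL5 (right), in percent, 1 stacked bar per library. PAL4 takes 28.5% and 23.5% of the PAL level in bud and at most 5.03% elsewhere, and 4CL3 takes 30.5% and 32.7% of the 4CL level in bud and at most 17% elsewhere.

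C4H, the only gene for its step in this genome, had the tissue order of PAL1 within each accession. It stood at 47.4 and 55.4 RPKM in seedling, 265 and 322 RPKM in root, and 35.7 and 97.0 RPKM in bud. Root was highest in both accessions, and the bud libraries lay on either side of the seedling libraries. The level in root was 5.59 and 5.81 times that in seedling (seedling minus root -2.49 ± 0.33, adjusted p = 0.00356), and 7.43 and 3.32 times that in bud (bud minus root -2.29 ± 0.33, adjusted p = 0.00468). Bud and seedling were not told apart (0.20 ± 0.33, adjusted p = 0.664), with -0.40 in Col-0 and 0.80 in Can-0, and the sign of the mean turned under median centring (-0.29).

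C4H is held at the endoplasmic reticulum and receives electrons from NADPH:cytochrome P450 reductases. All 5 genes listed as P450 partners, whose part in the C4H step was not tested, were lower in seedling than root, where 41.0% of all genes were. They were the reductases ATR1 and ATR2 (-1.17 and -0.52), the cytochrome b5 CB5D (-0.81) and the scaffolds MSBP1 and MSBP2 (-1.32 and -1.80). In bud, 3 of the 5 were higher than in seedling, where 32.8% of all genes were, and 2 lower than in root, where 27.0% were.

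4CL1, the main ligase of lignin formation in this species, had the highest level of the 4CL genes in every library. It stood at 37.3 and 45.1 RPKM in seedling, 81.2 and 86.8 RPKM in root, and 47.3 and 63.4 RPKM in bud. The tissues did not overlap and stood in the order root, bud, seedling. The level in root was 2.18 and 1.92 times that in seedling (seedling minus root -1.02 ± 0.12, adjusted p = 0.00258) and 1.71 and 1.37 times that in bud (bud minus root -0.61 ± 0.12, adjusted p = 0.0129). Bud minus root was not called without the Col-0 root library (adjusted p = 0.0839) or without the Col-0 bud library (0.0973). Bud and seedling missed the threshold (0.41 ± 0.12, adjusted p = 0.0511), and were on the other side of it with 0.1 added before the logarithm (adjusted p = 0.0485), and under median centring the difference was -0.08. A neighbouring gene on the opposite strand, AT1G51670, overlaps 4CL1 by 24 bases and stood at 0.334 to 7.52 RPKM.

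4CL2 stood at 2.59 and 1.87 RPKM in seedling, 38.7 and 30.8 RPKM in root, and 4.48 and 9.41 RPKM in bud. Root was far above the other tissues, which did not overlap each other. The level in root was 15.0 and 16.5 times that in seedling (seedling minus root -3.47 ± 0.36, adjusted p = 0.00174). This was the largest difference among the members that were higher in root than seedling. PAL3 went the other way, with seedling at 44.3 times root in Can-0. The 4CL2 level in root was 8.64 and 3.27 times that in bud (bud minus root -2.23 ± 0.36, adjusted p = 0.00667). Bud was above seedling with an adjusted p of 0.0489 (1.24 ± 0.36). That call was lost without the Col-0 seedling (adjusted p = 0.0630), Can-0 seedling (0.181) or Can-0 bud (0.124) library, with no filter (0.0763), with no empirical Bayes trend (0.0549) or with the root libraries left out (0.0512), and the difference was 0.75 under median centring (adjusted p = 0.140) and 0.61 under quantile normalization (adjusted p = 0.221).

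4CL3, the ligase known for its part in flavonoid synthesis, differed from the other 4CL genes. Its levels were 8.58 and 6.52 RPKM in seedling, 15.6 and 3.71 RPKM in root, and 24.9 and 38.2 RPKM in bud. Bud was highest in both accessions, and the root libraries lay on either side of the seedling libraries. Seedling and root were not told apart (-0.06 ± 0.58, adjusted p = 0.955). Bud was above root by 1.85 ± 0.58 (adjusted p = 0.0492), and the difference from seedling, 1.91 ± 0.58, was on the other side of the threshold (adjusted p = 0.0547). The Can-0 bud level was 10.3 times the Can-0 root level, and the Col-0 bud level 1.60 times the Col-0 root level. The bud minus root call was lost under 7 of the alternatives that kept all libraries or both tissues (adjusted p from 0.0531 to 0.0761) and without the Can-0 root library (0.118), the Can-0 bud library (0.232) or either seedling library (0.0544 without Col-0 and 0.0552 without Can-0), while bud minus seedling was called without the Col-0 root (0.00904) or Can-0 root library (0.00860) or both (0.00915).

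Of the summed level of 4CL1, 4CL2, 4CL3 and the related 4CL5, 4CL1 held the largest share in each, from 52.1% in Col-0 root to 78.3% in Can-0 seedling. 4CL2 made up 5.11% and 3.24% in seedling, 24.9% and 21.1% in roots, and 5.48% and 8.04% in bud. 4CL3 made up 17% and 11.3% in seedling, 10.0% and 2.54% in roots, and 30.5% and 32.7% in bud. The second ligase was therefore 4CL3 in seedling and bud and 4CL2 in root. 4CL1 was above 4CL2 (2.62 ± 1.15 SD) and above 4CL3 (2.13 ± 1.28 SD) in 6 of 6 libraries, each with an exact permutation p of 0.0313 and 0.0438 adjusted over the 7 pairs. 4CL5 overlaps MKK5 on the opposite strand by 459 bases, and strand use in counting is not given in the sources used here.

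CCR1 encodes the reductase that commits CoA esters to monolignols. It stood at 52.0 and 39.0 RPKM in seedling, 90.7 and 70.0 RPKM in root, and 31.9 and 31.5 RPKM in bud. No tissue overlapped another, and the order was root, seedling, bud in both accessions. The level in root was 1.74 and 1.79 times that in seedling (seedling minus root -0.81 ± 0.14, adjusted p = 0.00768) and 2.84 and 2.22 times that in bud (bud minus root -1.30 ± 0.14, adjusted p = 0.00180). Bud was below seedling (-0.49 ± 0.14, adjusted p = 0.0444). That last call was lost without any 1 of the 6 libraries (adjusted p from 0.0609 without Can-0 root to 0.243 without Col-0 bud) and under 4 alternatives that kept both tissues (0.0562 to 0.111), and the call between seedling and root was lost without the Col-0 root library (0.0504). CCR1 overlaps NRAMP6 on the opposite strand by 516 bases, and NRAMP6 stood at 0.661 to 4.61 RPKM. An annotated long non-coding RNA on the opposite strand, AT1G05213, overlaps it by 2457 bases and was not analysed here.

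CCR2, the reductase known mainly from pathogen responses, was below CCR1 in all 6 libraries (CCR1 minus CCR2 3.85 ± 1.14 SD, exact permutation p = 0.0313, adjusted p = 0.0438). Its share of the summed CCR level was 0.984% and 1.98% in seedling, 16.8% and 12.8% in roots, and 1.37% and 2.93% in bud. The share was highest in root in both accessions. CCR2 overlaps NRAMP1 on the opposite strand by 132 bases, and NRAMP1 was also highest in root, at 92.5 and 99.1 RPKM against at most 15.7 elsewhere; the part of such reads in the CCR2 level was not tested.

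CAD5, which with CAD4 makes up the main lignin dehydrogenase activity of this species, stood at 11.0 and 18.2 RPKM in seedling, 85.3 and 74.0 RPKM in root, and 30.9 and 42.3 RPKM in bud. The tissues did not overlap, in the order root, bud, seedling. The level in root was 7.73 and 4.06 times that in seedling (seedling minus root -2.40 ± 0.24, adjusted p = 0.00146) and 2.76 and 1.75 times that in bud (bud minus root -1.12 ± 0.24, adjusted p = 0.0152). Bud was above seedling (1.29 ± 0.24, adjusted p = 0.0139). Without the Col-0 bud library neither bud comparison was called (adjusted p = 0.0981 against root and 0.0763 against seedling), and likewise without the Can-0 bud library (0.0707 and 0.102). CAD4 was above CAD5 in all 6 libraries (CAD5 minus CAD4 -1.51 ± 1.08 SD, exact permutation p = 0.0313, adjusted p = 0.0438). The share of CAD5 in their sum was 9.93% and 28.0% in seedling, 18.6% and 21.2% in roots, and 41.4% and 47.2% in bud, so it was largest in bud.

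Genes of the connected steps were followed as lists. Against a median of -0.33 over all genes, the median difference between seedling and root was -1.98 for 10 other monolignol genes. It was -1.91 for lignin polymerisation and -1.17 for the listed P450 partners. For activators of lignin and secondary walls it was -1.03, for MYB repressors -1.37 and for phenylalanine supply -0.84. It was -4.95 for the coumarin list, -0.87 for flavonoid genes, -0.83 for sinapate ester genes, -0.93 for anther phenolics, -0.38 for CAD relatives and 2.46 for the F-box genes. Of these other monolignol genes, 6 of 10 were lower in seedling than root, where 41.0% of all genes were. In bud 8 were lower than root, where 27.0% were. The list also holds 4CL5, CCR2, CAD4 and CAD9, which belong to the 4CL, CCR and CAD families of the members. Of its genes for other steps, C3H1 (-2.10), CSE and CCOAOMT1 (-1.87) were lower in seedling than root. F5H1 was higher there, and HCT and COMT1 were not called. In bud all of these but COMT1 were lower than root. Between seedling and root the largest differences in the whole list were CCR2 (-3.16), 4CL5 (-2.55), CSE (-2.36), which cuts caffeoyl shikimate, and CAD4 (-2.21). Between bud and root they were CCR2 (-3.13), CAD4 (-2.79), C3H1 (-2.60), which adds the second ring hydroxyl, and CCOAOMT1 (-1.94), a methyltransferase. F5H1, the hydroxylase of syringyl units, was higher in seedling than root (1.37) and lower in bud than root (-1.30). CAD9 was higher in seedling (3.74) and in bud (5.75) than in root, opposite to CAD5. Between bud and seedling 3 of the 10 were higher and 1 lower, where 32.8% and 12.0% of all genes were. Of 6 CAD relatives, 4 were tested: CAD1 and CAD6 were lower in seedling (-1.60 and -1.92) and bud (-1.77 and -2.97) than in root, CAD7 was higher in both (5.35 and 6.07), and CAD8 was higher in bud than in root (3.89) and seedling (3.05), while CAD6 was lower in bud than seedling (-1.05).

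Lignin polymerisation followed the root side. All 5 tested genes of 6 were lower in seedling than root, with the peroxidases PRX72 (-6.58) and PRX64 (-6.11) differing most, followed by the laccases LAC11 (-1.91) and LAC4 (-1.64). In bud 3 of these 5 were lower than root, where 27.0% of all genes were, and 3 higher than seedling, where 32.8% were. Of 9 regulators of lignin and secondary walls, 7 were tested and 5 were lower in seedling than root, led by MYB63 (-3.29) and MYB46 (-1.89), with 4 of 7 lower in bud than root and 3 of 7 higher in bud than seedling, against the same shares of all genes. The repressors MYB4, MYB7 and MYB32 were also lower in seedling than root (-1.23, -2.98 and -1.37), so activators and repressors of the pathway were on the same side. In bud MYB32 was higher than in root (2.04) and seedling (3.41), and MYB7 was lower than in root (-1.56).

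Kelch F-box proteins mark PAL protein for degradation. Between seedling and root KFB50 and KFB20 went the opposite way to PAL1 and PAL2, and KFB01 the same way. KFB50 stood at 140 and 61.7 RPKM in seedling, 6.71 and 2.10 RPKM in root, and 64.2 and 41.6 RPKM in bud, so root was lowest in both accessions. KFB50 (4.27) and KFB20 (2.46) were higher in seedling than root and KFB01 was lower (-2.49); KFB39 did not pass the filter. Between bud and seedling KFB01 was higher (1.87) and KFB20 and KFB50 lower (-1.53 and -0.84), and between bud and root KFB50 was higher (3.43).

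Of 15 genes that supply phenylalanine, 7 were lower in seedling than root and 1 higher, where 41.0% and 18.5% of all genes were. The arogenate dehydratase gene ADT5 had the largest difference (-3.46, with 124 and 67.3 RPKM in root against 7.55 and 7.24 in seedling), and DHS2, for a first enzyme of the shikimate pathway, was the one higher in seedling (1.67). In bud 10 of the 15 were lower than root and 2 higher, where 27.0% and 30.3% of all genes were, and 2 were higher than seedling and 3 lower, where 32.8% and 12.0% were.

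Counts in the coumarin, flavonoid, sinapate ester and anther lists are read against the shares of all genes. Of all genes, 18.5% were higher and 41.0% lower in seedling than root. In bud 30.3% were higher and 27.0% lower than root, and 32.8% higher and 12.0% lower than seedling. All 5 genes of the coumarin list, which also holds the suberin feruloyl transferase ASFT, were lower in seedling and in bud than in root, ASFT (-5.26 and -6.29) and F6'H1 (-5.52 and -5.77) most, and ASFT was also lower in bud than seedling (-1.03). Of 12 flavonoid genes, 11 were tested, of which 5 were higher and 3 lower in seedling than root, 4 were higher and none lower in bud than root, and 5 were higher and 3 lower in bud than seedling. The regulator MYB111 was higher in bud than in root (5.78) and seedling (2.97). Of 6 sinapate ester genes, 5 were tested, with 1 higher and 2 lower in seedling than root, 1 higher and 2 lower in bud than root, and 1 higher and 3 lower in bud than seedling. Of 10 genes of anther phenolics and sporopollenin only 4 passed the filter and the list summed to 25 and 23.8 RPKM in bud against 13.7 to 39.3 elsewhere, with the CoA ligase relative ACOS5 at 0 in both bud libraries. Of those 4, 2 were lower in seedling than root, 1 was higher and 1 lower in bud than root, and 1 was higher in bud than seedling.

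No member was called between Can-0 and Col-0 over the 3 tissues, and none had an unadjusted p under 0.05 in limma, where 0.960% of all genes were called. No other tool was run. C4H had the largest mean difference (0.64 ± 0.27, adjusted p = 0.332), higher in Can-0 in 3 of 3 tissues. 4CL1 was also higher in 3 of 3 tissues (0.26 ± 0.10, adjusted p = 0.296), and CCR1 was lower in 3 of 3 (-0.26 ± 0.11, adjusted p = 0.336). The other members had mixed signs. The share of all genes with the same sign in all 3 tissues was not counted, so this is no trait of these genes. 4CL3 had the lowest mean (-0.52 ± 0.48, adjusted p = 0.614), from differences that went opposite ways in root and bud. No gene of the pathway lists was called between the accessions either.

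Within a tissue each accession had 1 library, so no test could be made, and differences of at least 1 in size were counted among genes that reached 1 RPKM in either library. In seedling none of the 10 members passed 1 in size, where 9.01% of all genes did (4.78% with Can-0 higher and 4.23% with it lower), 3 of 10 differences were positive (Can-0 above Col-0), and the largest were CAD5 (0.68) and PAL2 (-0.60). In root 9 members were counted and 1 passed 1 in size, where 7.43% of all genes did (3% with Can-0 higher and 4.42% with it lower). That member was 4CL3, at 15.6 RPKM in Col-0 (95% exact Poisson interval 14.5 to 16.8) and 3.71 RPKM in Can-0 (3.18 to 4.31), a difference of -1.82. The other members in root lay between -0.43 (PAL1) and 0.28 (C4H).

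Genes of the flavonoid branch, and the leaf markers, were lower in the Can-0 root library as 4CL3 was. All 6 flavonoid genes that could be counted were lower in Can-0 by more than 1, with a median of -2.16, against -0.02 over all genes counted. Chalcone synthase (CHS), the first enzyme of the branch, stood at 427 RPKM in Col-0 root and 88.0 in Can-0 root, flavonol synthase (FLS1) at 157 and 30.6, and the regulator MYB12 at 49.0 and 17.2. All 5 leaf markers were lower in Can-0 root, 2 of them by more than 1 (RBCS1A, 14.1 and 2.26 RPKM, and LHCA1, 26.5 and 11.1 RPKM), with none at 0, a median difference of -0.62 and sums of 83.4 and 44.3 RPKM. The part of any shared regulator or of such tissue in the 4CL3 level was not tested, and the 2 root libraries came from 1 run.

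In floral bud 9 of 10 members were higher in Can-0, with a median difference of 0.61 against 0.04 over all genes counted. PAL1 (1.13) and C4H (1.42) passed 1 in size, where 7.50% of all genes did (3.87% with Can-0 higher and 3.63% with it lower). 4CL2 (0.93), PAL2 (0.74), PAL4 (0.63) and 4CL3 (0.60) followed, and CCR1 (-0.02) was the exception. The xylem and secondary wall markers moved the same way in these libraries: 7 of 8 were higher in Can-0 bud, 3 of them by more than 1 (CESA4, CESA7 and IRX9, from 8.63 to 21.5, 4.71 to 11.1 and 2.63 to 7.54 RPKM), and their sum was 145 RPKM in Col-0 bud and 196 in Can-0 bud. Of 5 pollen markers, 4 were higher in Can-0 bud, 2 of them by more than 1 (AMT1;4, 1.28, and MGH3, 1.02), with sums of 1269 and 1466 RPKM. All 4 floral bud markers that could be counted were higher as well, by 0.12 to 0.55, with sums of 709 and 847 RPKM. The part of these tissues in the difference was not tested. Pathway genes were also higher in Can-0 bud: 8 of 9 other monolignol genes counted (median 0.55), 9 of 11 flavonoid genes (0.49) and 11 of 15 phenylalanine supply genes (0.15). Of the 12 pathway lists only the F-box list (0 of 3 higher, -0.77) and the anther list (2 of 5, -0.20) had a median below 0. As the bud libraries came from different runs, accession and run cannot be told apart here.

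**Figure D4:**
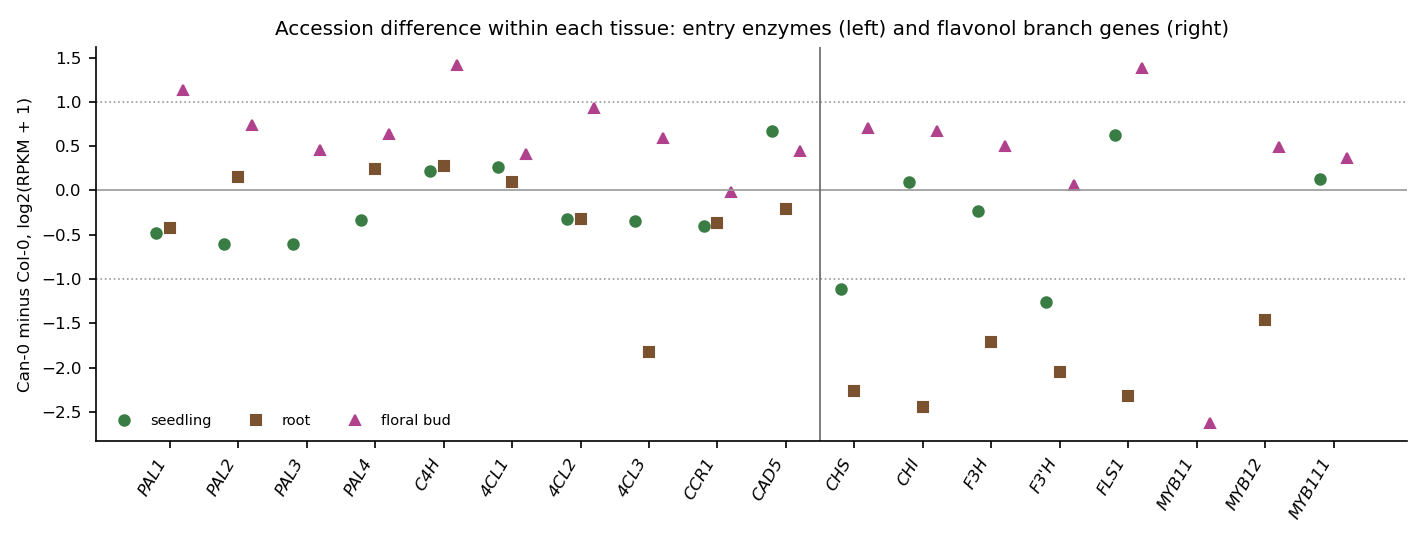
Can-0 minus Col-0 difference in log2(RPKM + 1) within seedling (circles), root (squares) and floral bud (triangles), for the entry enzymes (left of the vertical line) and flavonol branch genes (right); each point is 1 library against 1 library, shown where either reached 1 RPKM, and dotted lines mark a difference of 1. The root square of 4CL3 (-1.82) lies with those of the flavonol genes, and the bud triangles of PAL1 (1.13) and C4H (1.42) lie above the upper dotted line.

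KFB20 and KFB50 were lower in Can-0 in each tissue. KFB20 stood at 35.6 and 9.67 RPKM in seedling, 2.74 and 2.47 in roots, and 9.17 and 3.58 in bud. Neither passed the test over tissues (KFB20 -1.01 ± 0.34, adjusted p = 0.258; KFB50 -1.03 ± 0.16, adjusted p = 0.0928).

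The genes whose profile over the 6 libraries was most like that of a member were found by the smallest root mean square difference of gene-centred log2(RPKM + 1) among 14302 genes with a range of at least 1. They share library and depth with the member and are given as a description. For PAL1 they were CYCP3;2 (0.17), IRX9 (0.18), which is a xylan synthesis gene of secondary walls and 1 of the xylem markers above, and HOS10 (0.19). For C4H they were PLL2 (0.20), AT4G11610 (0.20) and LRL2 (0.23), and for 4CL1 AT3G18860 (0.05), AT5G01890 (0.05) and the histone deacetylase gene HDA6 (0.06). For CCR1 they were AT5G10970 (0.09), the cyclin gene CYCB1;4 (0.10) and GLP7 (0.10), and for CAD5 the tubulin gene TUB1 (0.13), SIP2;1 (0.13) and NUDX13 (0.14). For 4CL3 they were BLT (0.28), a gene of trichome branching, DGR2 (0.35) and AT1G25230 (0.37), all farther away than those named for the other 5 members searched. Because 1 is added before the logarithm, a gene near 0 can lie close to a member while its fold change is much larger. In Can-0 seedling and root, AT4G11610 stood at 0.0132 and 5.28 RPKM against 55.4 and 322 for C4H. CYCP3;2 stood there at 0.0625 and 4.34 RPKM against 44.5 and 228 for PAL1. Among the members themselves PAL1 and C4H were each other's closest (0.40). Many genes outside the members lay closer: ranked with those 14302 genes, C4H stood at place 160 from PAL1 and PAL1 at place 87 from C4H. Of these 6 members 4CL3 was farthest from its closest one, 4CL1 (1.17).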

How the data were processed

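RPKM values were computed by the authors and deposited as 1 table per library, per the file headers. Per the submitters' processing notes the genome builds were TAIR9 and TAIR10, with no role stated. Not given in the sources used here are the aligner, the counter, strand use and what became of reads matching several genes. Libraries were made by a small RNA protocol adapted to fragmented mRNA, per the labels' protocols.

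Members were taken by locus identifier from all 6 tables. Members, lists and tests were chosen with earlier results of these data known. For tissue and accession a single limma fit (version 3.58.1, R 4.3.3) of log2(RPKM + 1), both as terms, with an empirical Bayes trend, covered the 20830 genes that reached 1 RPKM in 2 or more libraries; 2 residual degrees of freedom were moderated by 2.55 prior ones. Called means a Benjamini-Hochberg adjusted p under 0.05, two-sided, over all genes tested. With 1 library per group, p-values measure how far tissue differences vary between the accessions. The limma and sign-flip tests were tested on simulated data. Isoenzymes were compared with an exact permutation (sign-flip) test over the 6 libraries. Of 28775 features 28009 matched RefSeq TAIR10.1, the source of all sequences and positions; near-identical copies were sought with BLAST+ 2.17.0. Its sequence is that of Col-0, and Can-0 may differ from it.

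Named are all members, of each of 12 pathway lists (91 genes) up to 4 called genes with the largest difference and called genes of the opposite direction, and the 3 genes most like 6 of the members, 1 for each step and 4CL3 besides. Alternatives changed the added constant, the filter, the scaling, the settings of the empirical Bayes step, the size of difference required or the terms and tissues fitted, or left out each library.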

Additional observations from a re-analysis of the deposited data

Results flagged for a closer look

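In 2 members the accession difference passed 1 in size in some tissue and had the opposite sign in another, and since each tissue had 1 library per accession this was not tested. Smaller differences of opposite sign, none past 1 in size, were found in PAL2, PAL3, PAL4, 4CL2 and CAD5. PAL1 was lower in Can-0 in seedling (-0.48) and root (-0.43) and higher in floral bud (1.13). 4CL3 was lower in Can-0 in root (-1.82) and higher in floral bud (0.60). The bud libraries of the accessions came from different runs.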

How the results depend on the processing

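No paired analysis was possible because the replicate numbers pair nothing, every library carrying number 1. The accession term already compares tissues within accession, and isoenzymes are compared within a library. The number of members called between seedling and root kept within 1.5 times of 9 under every alternative (6 to 9 with a library left out), and no alternative called a member between the accessions. Between bud and seedling 5 members were called, 3 with no filter on low values, 3 without the empirical Bayes trend, and 2 to 5 with a library left out. Between bud and root 10 were called, and 6 to 9 with a library left out. Under alternatives that changed other settings, the 4CL3 call was lost in several and the PAL1 call with no filter. Of the 5 isoenzyme pairs called, 0 were with a library left out, since 5 libraries cannot give an adjusted p under 0.05. Directions turned for 4CL3 in seedling minus root (0.21 median-centred, 0.24 under quantile normalization, -1.03 to 0.91 with a library left out), for C4H in bud minus seedling (-0.29, -0.021, and -0.39 to 0.78) and for 4CL1 in bud minus seedling (-0.077 median-centred), and with a library left out for PAL1 in bud minus seedling (-0.13 to 1.46). In Can-0 minus Col-0 they turned with a library left out for PAL1 (-0.45 to 0.35), PAL2 (-0.23 to 0.45), PAL3 (-0.18 to 0.35), PAL4 (-0.045 to 0.44), 4CL2 (-0.32 to 0.30) and 4CL3 (-1.08 to 0.12). Beyond the scaling itself and the fewer libraries, the cause was not tested. Shares without near-identical copies were not run, as no member has such a copy. Depth limits only PAL3 in root, and 1 library per group limits every comparison.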
